A study of Mus musculus with 32 samples.

Results

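Mest and Copg2 are neighbouring genes on mouse chromosome 6 that point towards each other and overlap at their 3' ends by 904 bases. They were taken by gene symbol from tables of informative reads, which are reads over a base that differs between the parental strains (a SNP). The pair held 13 of the 220733 transcript SNP rows in adult prefrontal cortex, 13 of 239842 in adult preoptic area and 13 of 291147 in embryonic brain. These rows cover 4 transcripts and 8 distinct positions, 3 in Mest and 5 in Copg2, and none of the 8 was listed for both genes. To set the pair in its surroundings, every SNP counted on the genome around it on chromosome 6 (build mm9) was added, the first listed at 30601045 and the last at 30845539. That window held 41 of 144042 SNPs in prefrontal cortex, 51 of 157595 in preoptic area and 59 of 301335 in the embryo, or 72 positions in any of the 3.

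Imprinted genes are read mainly from the chromosome of a single parent, which is set by DNA methylation laid down in egg or sperm. Mest, also called Peg1, encodes an enzyme-like protein of the alpha/beta hydrolase fold and is a textbook paternally expressed gene of mesoderm and brain. Copg2 encodes a gamma subunit of coatomer, the COPI coat that carries vesicles from the Golgi back to the endoplasmic reticulum. In mouse neural tissue Copg2 has been described as read mainly from the maternal chromosome, and an extended form of Mest that runs on into Copg2 is also known.

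Most samples were F1 offspring of the inbred strains CAST/EiJ (CAST), a wild-derived strain of Mus musculus castaneus, and C57BL/6J (B6), a common laboratory strain. Of the 32 libraries, 8 came from the inbred strains themselves. The 4 of these from embryonic brain, as a single summed column per strain, are used below to compare the strains. F1i animals had a CAST dam and a B6 sire, and F1r animals a B6 dam and a CAST sire. No animal carried an engineered allele or received a treatment, per the labels. Medial prefrontal cortex (PFC) and preoptic area (POA, the front of the hypothalamus) came from animals 5 weeks old, with a male and a female pool for each cross in each region. Whole brain at embryonic day 15 (E15) gave 1 pool per cross. Each adult pool mixed 8 to 10 animals of a single sex and each embryonic pool 4 to 5 embryos, so animals within a pool cannot be seen apart. The PFC and POA pools may come from the same animals. The maternal share is the percent of informative reads with the mother's base, CAST in F1i and B6 in F1r.

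Informative reads per pool ranged from 4963402 to 7470295 for PFC, from 3603514 to 7702810 for POA and from 11454846 to 11908414 for E15. The regional labels were checked against marker genes, as reads per 1000000 informative reads (RPM), summed over the markers. Cortical excitatory markers reached 2529 to 3751 RPM in PFC, with 5 of 5 listed, and 6.62 to 11.0 in POA, with 2 of 5 listed. Preoptic and hypothalamic markers lay between 0.492 and 2.62 in PFC, with 1 of 7 listed, and between 173 and 344 in POA, with 5 of 7 listed.

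Mest was read mainly from the paternal chromosome in every pool, and the size of the excess differed widely between the 3 tissues. In PFC its maternal share was 9.49% in the male F1i pool, 15.4% in the male F1r pool, 12.1% in the female F1i pool and 12.5% in the female F1r pool. In POA it was 29.2% in the male F1i pool, 38.7% in the male F1r pool, 19.4% in the female F1i pool and 28.4% in the female F1r pool. In E15 brain it was 2.14% in F1i and 5.90% in F1r. The 3 tissues did not overlap, with all POA pools above all PFC pools and both E15 pools below them. How many of all genes separate the tissues in this way was not counted. All maternal reads counted for Mest lay in the 3' stretch that overlaps Copg2, as given below.

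Copg2 was read mainly from the maternal chromosome in every pool. In PFC its maternal share was 74.8% in the male F1i pool, 83.0% in the male F1r pool, 75.6% in the female F1i pool and 74.1% in the female F1r pool. In POA it was 95.6% in the male F1i pool, 86.6% in the male F1r pool, 92.2% in the female F1i pool and 88.6% in the female F1r pool. In E15 brain it was 65.6% in F1i and 78.6% in F1r, a pair that straddled most of the PFC pools and lay under all POA pools. The F1i value includes A156G, a base near an exon junction that was 52.1% maternal in that pool, as given below. Counted on the genome, the Copg2 coding exons were 75.7% maternal in E15 F1i and 78.3% in E15 F1r. In bulk tissue, fewer cells of a type and less RNA per cell cannot be told apart, so a share averages over all cells of the pool.

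**Figure D1:**
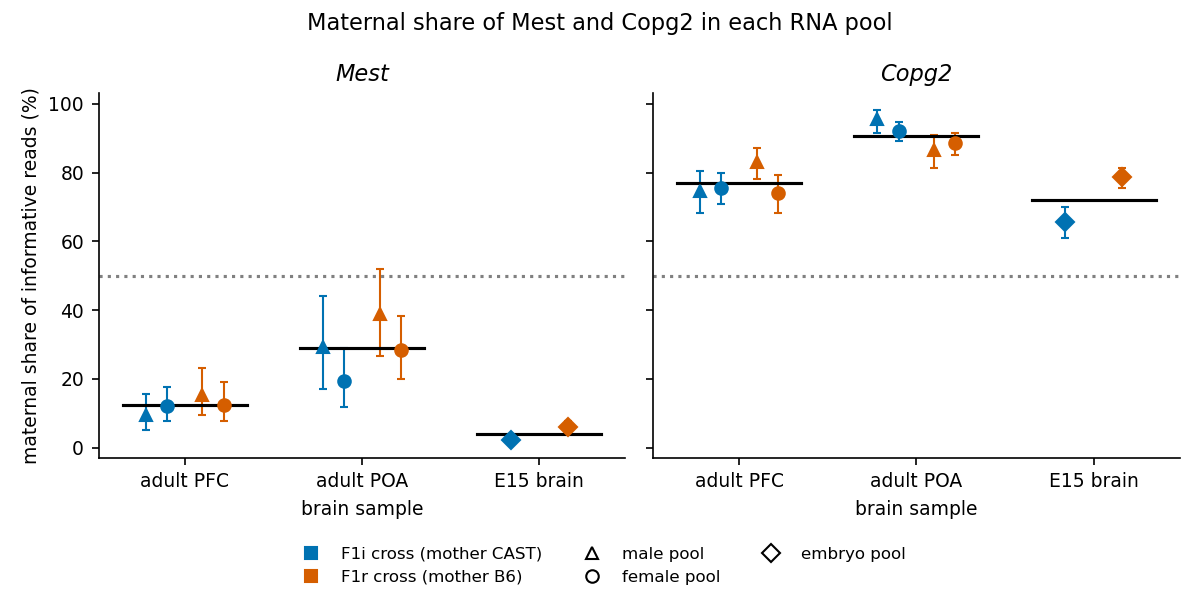
Maternal share of informative reads (percent, vertical axis) of Mest and Copg2 in each of the 10 F1 pools of adult PFC, adult POA and E15 brain. Points are pools with exact Clopper-Pearson 95% intervals of the reads, black bars are means of pools, and the dotted line marks equal reading. Mest averages 12.4% in PFC, 28.9% in POA and 4.02% in E15, while Copg2 averages 76.9%, 90.7% and 72.1% in the same order.

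The parental effect was tested as a log2 value, the log2 CAST to B6 ratio in F1i minus that in F1r, in which a positive value means more maternal reads. Pools were fitted with edgeR's quasi-likelihood test over all genes with a mean of at least 20 reads per pool, with Benjamini-Hochberg adjustment at 0.05. In PFC, where 0.282% of 11366 genes were called, both genes passed. Mest had -5.66 ± 0.28 (SE, 4 pools, adjusted p = 0.00341 by edgeR) and Copg2 had 3.49 ± 0.29 (adjusted p = 0.0207 by edgeR). Without the male F1i pool the adjusted p by edgeR was 0.157 for Mest and 0.526 for Copg2, and without the female F1i pool 0.128 for Mest and 0.613 for Copg2. The log2 values stayed between -5.87 and -5.47 for Mest and between 3.12 and 3.89 for Copg2.

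In POA, where 0.396% of 11876 genes were called, Copg2 passed with 6.71 ± 0.30 (SE, 4 pools, adjusted p = 0.00211 by edgeR), also without any single pool. Mest had -2.71 ± 0.44 in POA and was not called, with an adjusted p of 0.279 by edgeR. All 4 POA pools had a Mest maternal share under 50%, and the male F1r pool had a 95% interval of 26.6 to 51.9%. With autosomal genes only, Mest passed in POA at an adjusted p of 0.000315 by edgeR, and DESeq2 gave 0.0149.

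Over all 8 adult pools, where 0.404% of 11625 genes were called, Mest averaged 20.6% ± 10.4 maternal and Copg2 83.8% ± 8.32 (SD, n = 8). Both passed, Mest at -4.25 ± 0.56 (adjusted p = 0.0124 by edgeR) and Copg2 at 4.94 ± 0.59 (adjusted p = 0.00639 by edgeR). Copg2 passed without each of the 8 pools in turn. The adjusted p of Mest by edgeR was 0.0590 without the POA female F1i pool, 0.0649 without the PFC male F1i pool, 0.0578 without the PFC male F1r pool, 0.0940 without the PFC female F1i pool and 0.0588 without the PFC female F1r pool.

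In E15 brain, with 1 pool per cross, the spread of the adult pools stood in for that of the embryo, and 0.432% of 12275 genes were called. Mest passed at -9.49 ± 0.47 (adjusted p = 0.000121 by edgeR). Copg2 passed narrowly at 2.80 ± 0.42 (adjusted p = 0.0476 by edgeR), and fitted among transcripts it did not pass, at 2.80 with an adjusted p of 0.0565 by edgeR. That call was lost without 6 of the 8 adult pools. The adjusted p of Copg2 by edgeR was then 0.0728 and 0.0717 without the POA male F1i and F1r pools, 0.0742 and 0.0726 without the POA female F1i and F1r pools, and 0.163 without either PFC F1i pool.

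The maternal share of Mest was 12.4% ± 2.41 in PFC and 28.9% ± 7.91 in POA (SD, n = 4 each), a difference of -16.6 percentage points. For Copg2 it was 76.9% ± 4.16 in PFC and 90.7% ± 4.01 in POA (SD, n = 4 each), a difference of -13.9 points. The groups did not overlap for either gene. A 2-sided exact permutation test over the 8 pools thus gave p = 0.0286 for each, the smallest that 4 against 4 allows. How many of all 11625 genes separate the regions in this way was not counted. The same shift in maternal share had opposite sides to it. A lower maternal share means a stronger paternal excess for Mest and a weaker maternal excess for Copg2. The maternal reads counted for Mest all lay in the 3' stretch that overlaps Copg2, where reads of the 2 genes cannot be told apart. In the edgeR fit across 11625 genes, where 0.0258% were called, the log2 difference, PFC minus POA, was -2.95 ± 0.55 for Mest (adjusted p = 0.616) and -3.22 ± 0.46 for Copg2 (adjusted p = 0.191). With autosomal genes only the adjusted p by edgeR was 0.0108 for Mest and 1.8e-05 for Copg2. With the PFC and POA pools of the same cross and sex paired, it was 0.0197 for Mest and 0.000188 for Copg2, so these calls rest on the genes and the pairing that enter the fit. The maternal share was lower in PFC in 4 of 4 such pairs for each gene, and an exact sign-flip test over 4 pairs cannot go below p = 0.125.

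No difference between the sexes passed the test for either gene. Mest was 23.2% ± 13.2 maternal in males and 18.1% ± 7.66 in females, and Copg2 85.0% ± 8.65 in males and 82.6% ± 9.12 in females (SD, n = 4 each). The log2 difference, male minus female, was 0.43 ± 0.88 for Mest and 0.21 ± 0.86 for Copg2, with an adjusted p of 0.999 for Mest and 1.0 for Copg2 by edgeR, where 2.84% of genes were called. The sign of both turned when single pools were left out, with ranges of -0.56 to 2.25 for Mest and -1.05 to 2.17 for Copg2.

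Between ages, the parental effect counted for Mest was weaker in the adult pools than in the embryo. Every maternal read behind it lay in the 3' stretch that overlaps Copg2, where reads of the 2 genes cannot be told apart. The log2 difference, given as E15 minus the mean of PFC and POA, was -5.30 ± 0.50 (adjusted p = 0.0188 by edgeR), where 0.0815% of 12275 genes were called. This call was lost without 6 of the 8 adult pools, with adjusted p values by edgeR of 0.109 and 0.118 without the POA male and female F1i pools. They were 0.0854, 0.0718, 0.110 and 0.0657 without the PFC male F1i, male F1r, female F1i and female F1r pools. The Copg2 difference on the same scale was -2.30 ± 0.48 (adjusted p = 0.450 by edgeR), and with autosomal genes only the adjusted p was 0.00019.

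The maternal share of Mest differed between the bases at which it was read. Base 76 of uc009bft.1, in the first exon at position 30688138, drew maternal reads in no pool, 0 of 28 in PFC, 0 of 63 in POA and 0 of 6 in E15 brain. Those counts allow a share of up to 10.7% in PFC, 4.76% in POA and 50% in E15, and over all 10 pools 0 of 97 reads allow up to 3.09%. The other 2 Mest positions lie in its last exon at 30697590 and 30697834, inside the stretch that the annotation also gives to the last exon of Copg2 on the opposite strand. Reads carried no strand, so Mest and Copg2 reads over those bases cannot be told apart.

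At base 1676 (30697590) the maternal share was 6.45 to 17.7% in PFC, 25.0 to 45.5% in POA and 1.0 to 2.66% in E15 brain. At base 1920 (30697834) it was 10.7 to 14.6% in PFC, 27.8 to 40.4% in POA and 4.96 to 11.5% in E15. Both bases kept the order of the tissue means seen for the gene, but at base 1920 the E15 and PFC ranges overlapped. Base 1676 held 1385 of the 2041 Mest reads in E15 and 47 of 305 in POA. The gene's share thus weighs the bases differently in each tissue. Every maternal read counted for Mest came from these 2 bases. The transcripts uc009bft.1 and uc009bfu.1 list all 3 positions and have the same counts, while uc009bfs.1 lists the last-exon pair alone. By transcript, where 0.276% in PFC, 0.403% in POA and 0.374% in E15 were called, uc009bfs.1 had -5.49 in PFC (adjusted p = 0.00341 by edgeR) and -1.81 in POA (adjusted p = 0.476 by edgeR).

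When Mest was read at base 76 alone, the fitted values have no finite size, because no maternal read was seen, and no call was made in any tissue. The reads at that base were then 28, 63 and 6 in PFC, POA and E15. The adjusted p by edgeR was 0.978 in PFC, 0.469 in POA and 0.997 in E15. These fits took every gene with a mean of at least 1 read per pool in place of 20. Counted on the genome and tested as a single SNP, the same base had 0 maternal reads of 62 in POA and was called paternal (adjusted p = 0.00584 by edgeR).

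The 5 Copg2 positions all fall in coding exons, and the bases around them are shown because the whole allele count of the gene rests on them. Each line gives 21 bases of the transcript strand (mm9, chromosome 6, minus strand), with the B6 base of the SNP in capitals and the CAST base named by the substitution. Positions count from the first base of uc009bfv.1.
A156G at 30844925: ttctgtaggcAcgcatattca
C1122T at 30774437: aaacaggaagCgagagcagtg
G1203A at 30766827: tggtggtcgtGcaggccatca
A1908G at 30760463: cagaacagttAgctgccattc
T1947C at 30760424: gacccttgttTaagtcttctg

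All 5 Copg2 bases leaned maternal on average in each tissue. G1203A was 73.2 to 78.7% maternal in PFC, 85.4 to 97.7% in POA and 71.2 to 72.4% in E15 brain. T1947C was 72.2 to 85.7% in PFC, 88.1 to 100% in POA and 73.0 to 74.5% in E15. A1908G was 63.6 to 84.6% in PFC, 84.5 to 97.1% in POA and 78.1 to 82.2% in E15. C1122T, with the fewest reads of the 5, ranged from 50 to 92.3% in PFC, 85.2 to 93.0% in POA and 78.6 to 91.1% in E15.

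At A156G the E15 crosses stood further apart than at the other 4 Copg2 bases. Its maternal share was 52.1% in the E15 F1i pool and 81.1% in the E15 F1r pool, against 70.3 to 80.8% in PFC and 86.6 to 91.8% in POA. This base stands 2 bases from an exon junction, and it held 539 of the 1292 Copg2 reads of the embryo. Counted on the genome, the same base had 10 reads in the E15 F1i pool, 7 of them maternal, and 52 reads in the E15 F1r pool, 45 of them maternal. Copg2 was also fitted without A156G, among genes with a mean of at least 1 read per pool in place of 20. The log2 value was then 3.49 in E15 (adjusted p = 0.0458 by edgeR), 3.61 in PFC (adjusted p = 0.0883 by edgeR) and 7.20 in POA (adjusted p = 0.00172 by edgeR).

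**Figure D2:**
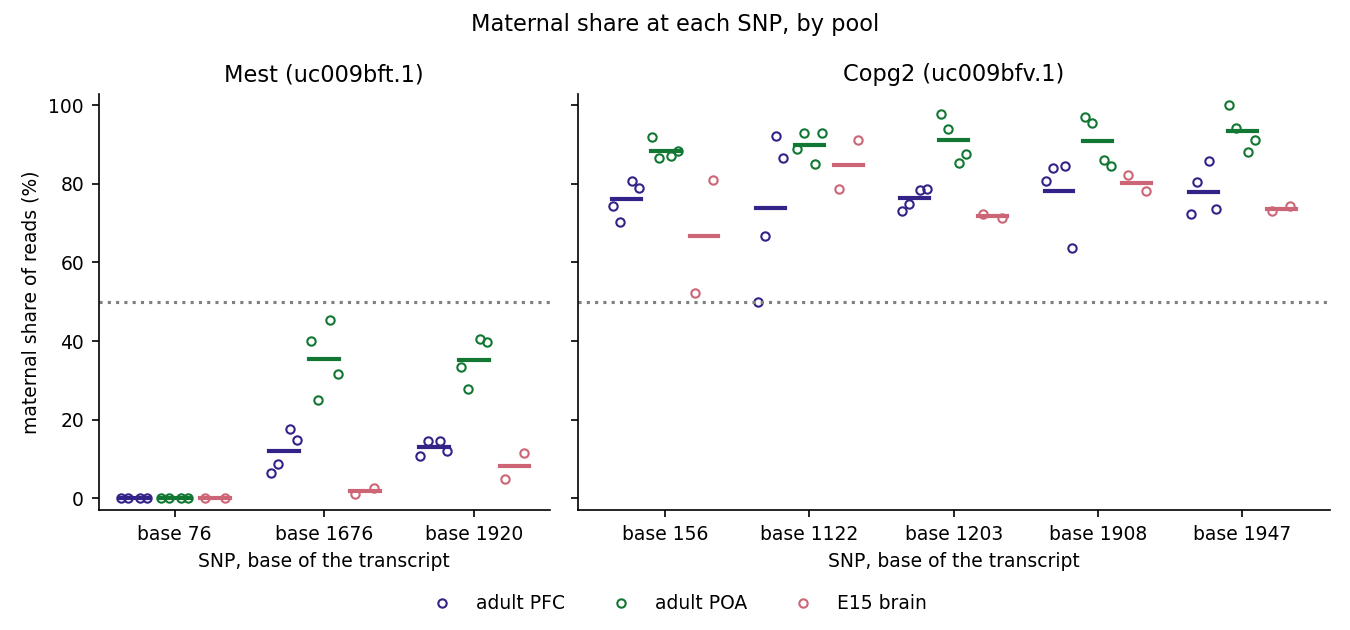
Maternal share of reads (percent, vertical axis) at each SNP of Mest and Copg2, by base of the transcript, with 1 circle per pool of PFC, POA and E15 brain, and bars for the mean of pools. Mest base 76 sits at 0 in all 10 pools, its last-exon bases rise to 45.5% in POA, and every Copg2 mean lies above 50%.

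Along the chromosome the maternal share changed several times within the window. Among SNPs with a mean of at least 10 reads per pool, 22 of 24 were called in PFC, 3 maternal and 19 paternal, and 25 of 27 in POA, 5 maternal and 20 paternal. Over all SNPs of the genome 0.444% were called in PFC, 0.233% maternal and 0.211% paternal. In POA it was 0.605%, with 0.307% maternal and 0.298% paternal. SNPs of a gene share reads and animals, so these are not separate replicates. The calls fell into blocks that followed the annotation.

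In the introns of Mest, with a noncoding exon of 1 annotated form, the reads were mainly maternal in the adult regions, the side opposite to Mest itself. The 7 intronic SNPs listed in PFC held 185 reads and averaged 67.4% ± 9.03 maternal over pools (SD, n = 4). The 11 listed in POA held 239 reads and averaged 85.0% ± 6.08 (SD, n = 4), and 9 of them were above 50% in both crosses. In E15 brain 10 such SNPs held 128 reads, 55.7% maternal in F1i and 61.2% in F1r. The 2 nearest to the first exon, at 30689425 and 30691975, had 0 maternal reads of 11 and of 9 in E15. In POA the base at 30691975 went the other way, with 17 maternal reads of 20. A single intronic SNP, at 30694943, was deep enough to test in POA, with 54 of 56 reads maternal and an adjusted p of 0.0140 by edgeR. Depth was low, with 40 to 52 reads per pool in PFC and 26 to 90 in POA.

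Just past the 3' end of Mest, in the adjoining Copg2 intron, the reads were paternal again. The 3 SNPs at 30700923 to 30702505 had 0 of 733 maternal reads in the E15 F1i pool and 3 of 394 in the E15 F1r pool. In POA the same 3 SNPs had 2 maternal reads of 133, and in PFC the SNP at 30702505 had 1 of 57. A further PFC SNP at 30702772 had the CAST base in all 11 of its reads in both crosses, so it followed the strain and not the parent.

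The paternal block with the most reads lay in a Copg2 intron that holds AF217545, a transcript on the plus strand and so antisense to Copg2. Its window SNPs span 30752899 to 30758683. They had 79 maternal reads of 7857 in PFC, 54 of 17646 in POA and 236 of 19582 in E15 brain. All 17 were called paternal in PFC and all 18 in POA. By transcript SNPs, AF217545 was 1.02% ± 0.916 maternal in PFC, 0.273% ± 0.139 in POA and 0.731% ± 0.545 in E15. These reads were left out of the Copg2 count, since none of its 5 transcript SNPs lies there.

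The bases around a pair of AF217545 SNPs are shown because this block holds most paternal reads of the window. Each line gives 21 bases of the plus strand (mm9, chromosome 6), with the B6 base of the SNP in capitals and positions counted from the first base of uc009bfw.1.
C1543T at 30756326: gaggtggtaaCgtatctccag
A1368G at 30756151: aggaggaagtAggtagctgta
C1543T was 0.457% maternal in the E15 F1i pool and 1.47% in the E15 F1r pool. A1368G was 0.230% maternal in the E15 F1i pool and 0.649% in the E15 F1r pool.

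Back in the Copg2 coding exons, the genome counts were maternal once more. They averaged 78.3% ± 5.16 in PFC and 93.0% ± 3.46 in POA (SD, n = 4 each), and were 75.7% in the E15 F1i pool and 78.3% in the E15 F1r pool. Of the 4 coding SNPs tested, 3 were called maternal in PFC and 4 in POA. Tsga14, a centrosomal gene at the far side of Mest, averaged 53.1% ± 11.8 in PFC and 61.7% ± 14.1 in POA (SD, n = 4 each), and 59.3% and 42.5% in the E15 F1i and F1r pools.

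**Figure D3:**
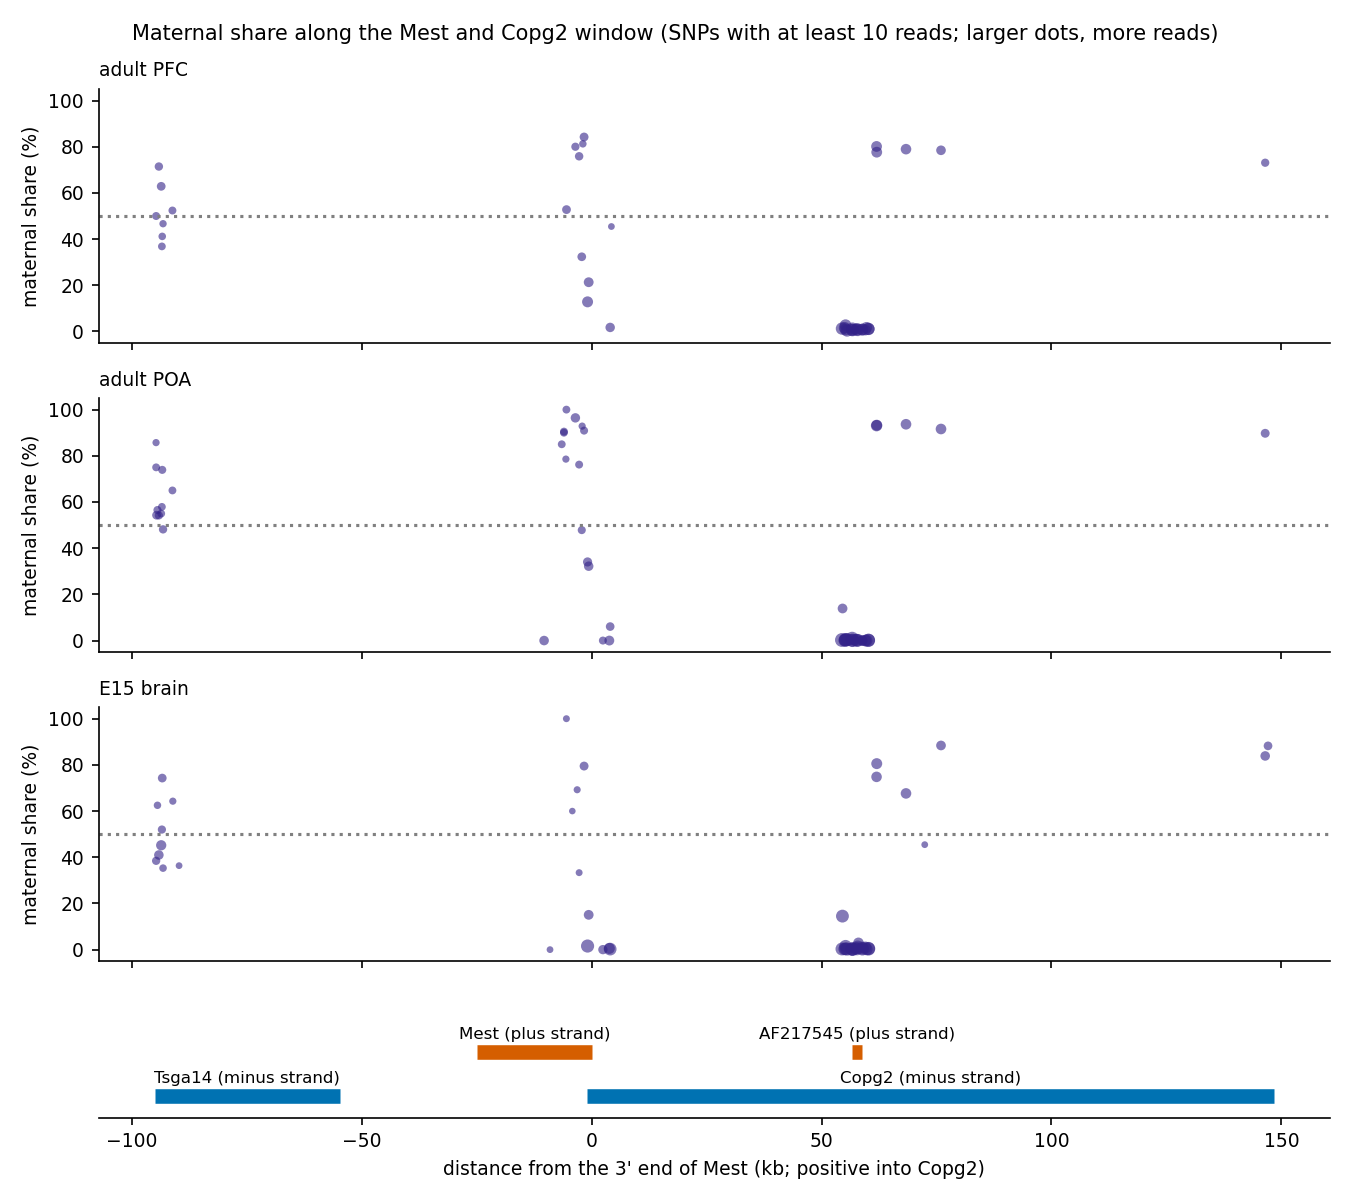
Maternal share (percent, vertical axes) at each genome SNP with at least 10 reads, against distance from the 3' end of Mest in kb, in PFC, POA and E15 brain, with the genes drawn beneath. Shares lie near 0 in the Copg2 intron with AF217545, above 50% at the Copg2 coding exons, and mainly above 50% in the Mest introns of PFC and POA.

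In RPM, the paternal allele of Mest differed more between tissues than its maternal allele. The paternal allele of Mest stood at 19.2 to 25.0 RPM in PFC, 9.32 to 10.3 in POA, and 108 and 61.6 in the E15 F1i and F1r pools. The maternal allele of Mest stood at 2.62 to 3.49 in PFC, 2.48 to 5.88 in POA and 2.36 and 3.86 in E15. The paternal ranges did not overlap between tissues, while the maternal ranges did. The share of all genes with such separate ranges was not counted. All maternal reads came from the stretch shared with Copg2, as given above.

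For Copg2, summed over its 5 bases, the paternal allele stood at 9.50 to 11.5 RPM in PFC and 2.22 to 7.11 in POA. It stood at 13.7 and 15.0 in the E15 F1i and F1r pools, again without overlap. Of the E15 values, 8.82 RPM in F1i and 5.21 in F1r came from A156G, the base near an exon junction. At each base taken alone, the E15 and PFC paternal ranges overlapped. How many of all genes have such separate ranges was not counted. The maternal allele of Copg2 stood at 30.4 to 46.5 in PFC, 45.8 to 50.6 in POA, and 26.1 and 55.2 in E15. The Copg2 maternal range of E15 covered both adult ranges.

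**Figure D4:**
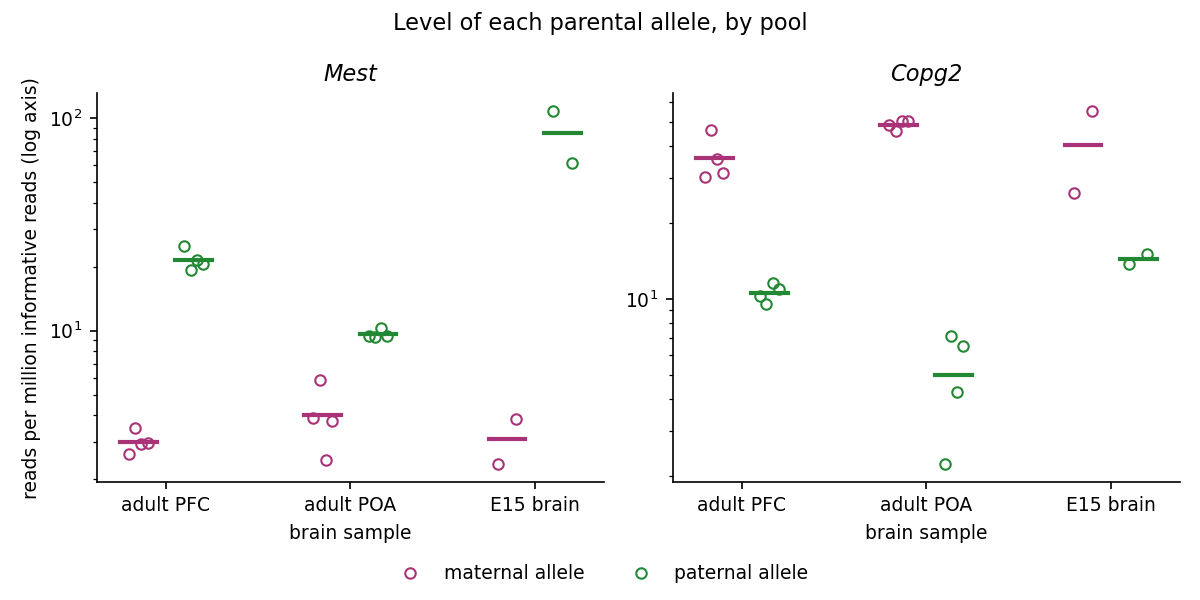
RPM, reads per 1000000 informative reads, on a log axis, from the maternal and paternal alleles of Mest and Copg2, with 1 circle per pool and bars for means, in PFC, POA and E15 brain. The paternal Mest allele spans 9.32 to 108 RPM across tissues, and its maternal allele 2.36 to 5.88.

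In total reads, scaled by TMM over SNPs listed in every tissue, Mest was lowest in POA and highest in the embryo. Total Mest averaged 28.5 ± 2.39 RPM in PFC and 13.7 ± 1.08 in POA (SD, n = 4 each). In the E15 F1i and F1r pools it stood at 112 and 64.7. Most of these reads lay in the stretch shared with Copg2. At base 76, outside that stretch, the order was reversed. Paternal reads there averaged 1.13 RPM in PFC, 2.47 in POA and 0.254 in E15, on 28, 63 and 6 reads in all. Mest was higher in PFC than in POA by 1.06 ± 0.14 on the log2 scale (adjusted p = 4.09e-05 by edgeR), where 55.8% of genes changed. Oligodendrocyte markers moved between the same regions, at 1331 to 4427 RPM in PFC and 7886 to 8533 RPM in POA, with 3 of 4 listed in each and Mog not listed. Markers of endothelium and mural cells summed to 84.6 to 116 RPM in PFC and 122 to 143 RPM in POA, with 6 of 6 listed. Their part in the regional differences of level or of maternal share was not tested. Mest was lower in both adult regions than in E15. Given as E15 over adult, the log2 value was 1.61 ± 0.19 against PFC (adjusted p = 3.51e-06 by edgeR) and 2.66 ± 0.19 against POA (adjusted p = 3.66e-08 by edgeR), where 31.2% and 32.6% of genes were higher in E15.

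Some lists of cell type markers were higher in E15 than in both adult regions, as total Mest was, and others were not. Meninges and fibroblast markers summed to 20.1 to 23.7 RPM in PFC and 24.3 to 26.9 in POA, with 5 of 6 listed and Lum not listed, and to 364 to 421 in E15, with 6 of 6 listed. Choroid plexus markers were not listed in PFC, summed to 3.99 to 7.22 in POA with 3 of 4 listed, and to 1897 to 2452 in E15 with 4 of 4 listed. Markers of progenitors and immature neurons summed to 27.6 to 32.7 in PFC and 45.2 to 61.8 in POA, with 3 of 7 listed in each. They summed to 2461 to 2540 in E15, with 6 of 7 listed, so these sums cover unlike sets of genes. Their part in the Mest level was not tested.

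No difference in total Copg2 between tissues passed the test. It averaged 54.1 ± 8.46 RPM in PFC and 54.2 ± 2.22 in POA (SD, n = 4 each), and stood at 40.5 and 69.4 in the E15 F1i and F1r pools. The log2 value was 0.00064 ± 0.13 for PFC over POA (adjusted p = 0.997 by edgeR). It was -0.0010 ± 0.18 for E15 over PFC (adjusted p = 0.997 by edgeR) and -0.01 ± 0.19 for E15 over POA (adjusted p = 0.964 by edgeR). PFC and POA thus overlapped in total Copg2, while their maternal shares did not.

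No effect of the strain of the allele passed the test for either gene. The log2 CAST over B6 value was called in neither gene in any tissue, where 22.2% of genes passed in PFC, 13.4% in POA and 12.3% in E15 at the adjusted p alone. It was -0.20 ± 0.14 in PFC, -0.34 ± 0.22 in POA and -0.76 ± 0.22 in E15 for Mest, with the lowest adjusted p by edgeR, 0.0634, in E15. For Copg2 it was -0.15 ± 0.14 in PFC, 0.53 ± 0.15 in POA and -0.47 ± 0.21 in E15, with the lowest adjusted p by edgeR, 0.0856, in POA. In brains of the parental strains at E15, Copg2 had a log2 CAST over B6 ratio of -0.69 between strains and -0.77 between F1 alleles. Mest had -0.11 between strains and -0.75 between F1 alleles. These F1 ratios sum the reads of both E15 pools, and the main parental allele is of a different strain in each. They thus also carry the level of each pool. Total Mest was 112 RPM in the E15 F1i pool and 64.7 in F1r, and total Copg2 40.5 and 69.4. The parental libraries were a single summed column per strain, with no test.

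The parental libraries were also counted for reads with the base of the other strain. The CAST library had 2 Mest reads with the B6 base beside 208 Mest reads in all, and the B6 library 2 with the CAST base beside 278. Copg2 had 0 such reads beside 196 in the CAST library and 0 beside 393 in the B6 library. These counts belong to the SNP calls of the same libraries, so they may be low by the choice of SNPs. They do not measure how often reads of the F1 pools were assigned to the wrong strain.

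The remaining coatomer subunits were compared as the complex to which Copg2 belongs. Of 10 names searched, 7 were tested in every fit, and 0 of 7 passed for a parental effect in PFC, POA or E15 by edgeR or by DESeq2. At an unadjusted p under 0.05, edgeR gave 1 of 7 in PFC and 0 in POA and E15. Their median maternal share was 48.3% in PFC, 49.7% in POA and 50.6% in E15, the last over 8 subunits, beside 49.6%, 50% and 50.4% over all genes. Copg, the paralog that encodes the gamma-1 subunit and was far more abundant in RPM, was 50% ± 1.51 maternal in PFC and 49.8% ± 2.33 in POA (SD, n = 4 each). It was 53.7% and 48.1% in the E15 F1i and F1r pools. Copg total reads averaged 732 ± 54.8 RPM in PFC and 925 ± 25.1 in POA (SD, n = 4 each), uncorrected for the bases covered.

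In total level, 4 of the 7 subunits differed between PFC and POA, 1 higher and 3 lower in PFC. That is close to the 55.8% of all genes called in this comparison. Copb2, a subunit that recognises cargo, was higher in PFC by 1.01 ± 0.15 on the log2 scale (adjusted p = 8.4e-05 by edgeR). Arcn1, which encodes the delta subunit, was lower in PFC at -0.79 ± 0.12 (adjusted p = 0.000108 by edgeR). In both adult regions 4 of the 7 were lower than in E15 and 2 were higher. Of all genes, 31.2% were lower in PFC than in E15 and 29.1% were higher. Against POA, 32.6% were lower in POA than in E15 and 30.7% were higher. The list median, as E15 over adult, was 0.55 against PFC and 0.33 against POA on the log2 scale, beside medians of 0.05 over all genes in each.

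Of 15 neighbouring gene names searched, 3 were tested, AF217545, Tsga14 and Mkln1, and AF217545 alone was called for a parental effect. Mkln1, which encodes the scaffold protein muskelin, was 58.4% ± 2.77 maternal in PFC and 50.4% ± 3.74 in POA (SD, n = 4 each), and 53.8% and 44.5% in the E15 F1i and F1r pools.

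The genes with the most similar pattern were found by the root mean square difference of maternal share over the 10 pools, among 10680 genes deep enough in every tissue. Nearest to Mest were Inpp5f, an inositol phosphatase gene, at 8.76 points, Hm13 at 10.4 and DOKist4 at 14.9, then AK045535 at 16.7 and Plagl1, a zinc finger gene, at 17.1. The median gene differed from Mest by 34.9 points. Inpp5f averaged 22.0% maternal in PFC, 28.4% in POA and 8.23% in E15, which kept the order POA, PFC, E15 of Mest. Nearest to Copg2 were 5830418K08Rik at 12.2 points, H13 at 12.4, 1810044A24Rik at 13.3, DQ715667 at 13.8 and the X-linked Xlr3b at 15.2, with a median gene at 33.4. The files list Hm13 and H13 as separate symbols.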

How the data were processed

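PolyA RNA of mouse brain was sequenced with random-hexamer cDNA, inserts of about 200 bp and 36 cycles, per the labels' protocols. The submitters' processing notes name Novoalign and build mm9. The deposited values are counts that the authors made: reads with the CAST and with the B6 base at each SNP, per pool, with technical replicates (4 libraries per embryonic and 2 per adult F1 pool) already summed. No SNP is listed with 0 reads in a pool of its tissue, so silent SNPs are missing. Counting used no strand. The label text of F1r carries the tag F1i, and crosses were taken from titles and the stated parents. Of the parental columns, 8 could not be tied to a region and were not used.

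Counts were summed over the SNPs of each gene's most-read transcript. SNPs nearer than 36 bases can count a read more than once. SNPs were placed by matching transcripts to NCBIM37 (mm9) with GENCODE vM1, and AF217545 by its SNP spacing. Allele counts were fitted with edgeR 4.0.16 (R 4.3.3), with terms for pool, allele and allele by cross (coded plus or minus 0.5), the pool total as library size, a mean of at least 20 reads per pool (10 for genome SNPs) and Benjamini-Hochberg adjustment. A call needs an adjusted p under 0.05 and the same side of 50% in both crosses. The parental fits of PFC, POA and all adults, and the PFC against POA level, were also run on simulated data, with no outcome given here. The E15 fit and the fits of differences between ages, regions and sexes were not simulated. DESeq2 1.42.0 was an alternative. Shares have Clopper-Pearson 95% intervals, and a count of 0 was taken to allow 3 reads, both for counting error only. Nothing in the labels says that pools are independent cultures or litters, so p-values measure the spread between pools. The named genes are Mest, Copg2 and 2 lists, chromosome 6 neighbours and coatomer subunits, plus the 5 nearest patterns. The members and lists were chosen with earlier results of these data known. Reading Mest without the overlap and Copg2 without its junction SNP, and pairing the PFC and POA pools of the same cross and sex, were added after the data were seen. Some items of the window are not reported here.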

Additional observations from a re-analysis of the deposited data

Results flagged for a closer look

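The Copg2 maternal share of the PFC male F1r pool, 83.0%, stood apart from the other 3 PFC pools, which lay between 74.1% and 75.6%. The gap was wide by Dixon's 95% limit. Of 8 groups of 4 pools looked at, this was the 1 that passed, and chance passes about 1 group in 20. The same pool had the highest Copg2 total in PFC, 66.1 RPM (reads per 1000000 informative reads), beside 47.2 to 54.0 in the others.

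The parental effect of Mest differed between ages by -5.30 on the log2 scale, given as E15 minus the mean of PFC and POA (adjusted p = 0.0188 by edgeR, 10 pools). Maternal shares were 12.4% ± 2.41 in PFC and 28.9% ± 7.91 in POA (SD, n = 4 each), and 2.14% and 5.90% in E15. The direction held at both last-exon bases, which lie in the stretch shared with Copg2. Base 76, outside it, had no maternal read at any age.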

How the results depend on the processing

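Of 287 alternative values for Mest and Copg2, 227 kept their direction and their side of the threshold. The deposited columns sum the technical replicates and carry no replicate number. With a replicate block that pairs the PFC and POA pools of the same cross and sex, chosen after the data were seen, the PFC against POA difference passed for Mest at -2.90 and for Copg2 at -3.22, and 43 genes were called, beside 3 without it. The Copg2 level for PFC over POA was -0.0072 with this block and not called. The labels do not say that paired pools come from the same animals. No position is listed for both genes, so leaving out shared positions changes nothing, and the E15 parental effect cannot be had without an E15 pool. Mest had 48 to 102 reads per pool in POA, and its first-exon base 6 to 63 reads in a tissue.

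With autosomal genes only, genes called for a parental effect numbered 49 in PFC, 136 in POA, 80 in all adults and 131 in E15, beside 32, 47, 47 and 53 over all genes. For differences they numbered 35 for PFC against POA, 0 for male against female and 106 for E15 against adults, beside 3, 330 and 10. The 0 is by edgeR, with 495 of 11271 autosomal genes below an unadjusted p of 0.05, and DESeq2 gave 0 as well. In the same setting Mest passed at -2.79 in POA and -2.85 for PFC against POA, and Copg2 at -3.16 for PFC against POA and -2.27 for E15 against adults. DESeq2 called Mest in POA at -2.71 and Copg2 for PFC against POA at -3.24, and counted 11 genes for PFC against POA and 21 for E15 against adults. TMM gave 5 and 6, the deepest SNP alone 5 for E15 against adults, and Fisher's exact test on the reads of the E15 pools 837. The exact permutation values for PFC against POA were -16.6 points for Mest and -13.9 for Copg2.

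Without the overlap and junction SNPs, Mest was no longer called at -11.6 in PFC, -13.0 in all adults and -7.21 in E15. Its fitted differences took the opposite sign, 2.46 for PFC against POA and 6.10 for E15 against adults. These rest on base 76 alone, where no maternal read was seen. The fitted values there have no finite size, so the sign of their difference gives no direction of a parental effect. Copg2 was then 3.61 in PFC and not called, and 6 genes were called for E15 against adults. The fits of this setting took every gene with a mean of at least 1 read per pool.

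The Copg2 level for PFC over POA was -0.0092 with DESeq2's size factors, -0.0096 without a filter and -0.0089 with DESeq2, and 0.0018 for E15 over PFC without a filter, none past the threshold.

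Leaving out each pool in turn gave Mest -5.87 to -5.47 in PFC, -4.65 to -3.87 in all adults, and -5.52 to -5.13 for E15 against adults. It gave Copg2 3.12 to 3.89 in PFC and 2.80 to 2.80 in E15. For male against female the range was -0.56 to 2.25 for Mest and -1.05 to 2.17 for Copg2. Copg2 levels ranged from -0.13 to 0.063 for PFC over POA, -0.37 to 0.29 for E15 over POA and -0.36 to 0.30 for E15 over PFC. Counts of genes called ranged from 10 to 28 in PFC, 19 to 51 in POA, 33 to 48 in E15, 1 to 8 for PFC against POA and 0 to 9 for E15 against adults. The 0 came without the POA male F1i and the POA female F1i pools, where edgeR had 530 and 576 genes at an unadjusted p under 0.05 and DESeq2 called 33 and 32. The cause of these changes was not tested.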

Other observations

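At 30753006, in the Copg2 intron with AF217545, the E15 F1i pool had 0 maternal reads of 581, as at the neighbouring bases. The E15 F1r pool had 147 maternal reads of 432, a share of 34.0%, while the whole block in that pool was 2.03% maternal. The base was not listed in the adult regions. In POA the nearby base at 30753031 had shares of 12.5 to 20% in all 4 pools, on 72 reads, beside 0.319% ± 0.119 (SD, n = 4) for the block. It was called paternal at an adjusted p of 0.0218 by edgeR.

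In the overlap, the genome counts of POA differed by cross more than the transcript counts did. The maternal share over both bases was 16.7% and 17.6% in the male and female F1i pools, and 45.5% and 44.7% in the male and female F1r pools, on 12 to 38 reads. In PFC it was 8.89% and 11.8% in F1i and 16.7% and 22.2% in F1r. The depth differed as well. At 30697834 the genome counts of POA held 59 reads, 19 of them maternal, beside 195 transcript reads, 69 of them maternal. In E15 that base had 73 genome reads beside 650 transcript reads. The cause was not tested.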
